A study of Homo sapiens with 2 samples.

Results

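The chemokines described here are 10 genes of the small secreted proteins that attract white blood cells: CXCL8, CXCL1, CXCL2, CXCL3, CXCL5, CXCL6, CXCL10, CXCL16, CCL2 and CCL20. They were chosen by name, and earlier values of these same libraries were known when they were chosen, those of CXCL8 and CCL20 above all. All 10 had a row among the 23033 genes with a value, and 7 of them reached 1 FPKM in at least 1 library, as did 13554 genes in all. The RNAseq data come from 2 cultures under cisplatin at 2 µg/ml, control (genotype WT) and FZR1 ko. The labels name the cells T-47D, a line from luminal breast cancer. FZR1 activates a ubiquitin ligase, APC/C, at the end of mitosis and in G1, and the comparison asks what its loss does to the mRNA of cells under cisplatin. The ko line was made with Cas9 and a guide RNA and grown from single cells, so clonal differences cannot be told apart from the loss of FZR1. The guide used and the hours of cisplatin for these cultures are not given in the sources used here, and cells without the drug were not analysed here.

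There was 1 library per condition, so no value below has an SD, no difference has a replicate check and no p-value is given. FPKM counts fragments relative to transcript length and to all mapped fragments, and the number of reads behind it is unknown. Summed over all genes, control had 502589 FPKM against 500488 FPKM for FZR1 ko. FZR1 itself stood at 12.28 FPKM in control against 10.10 FPKM in FZR1 ko, a level that does not check the labels because edited mRNA can persist. The luminal markers ESR1, PGR, GATA3 and CDH1 were under 1 FPKM in both libraries, which goes against the label, while FOXA1, TFF1 and XBP1 were above it. Of 6 epithelial markers, the keratins KRT8, KRT18 and KRT7 lay between 532 and 998 FPKM in both libraries, KRT19 had 0.20 and 0.16 FPKM, CLDN4 43.63 and 21.38 FPKM, and EPCAM 3.9 and 11.48 FPKM. Of 10 fibroblast and endothelial markers 5 reached 1 FPKM, and the list summed to 24.3 FPKM in control against 28.5 FPKM in FZR1 ko. LUM had 12.04 and 17.83 FPKM, COL1A1 5.13 and 6.25 FPKM, DCN 2.49 and 2.04 FPKM and PDGFRB 0.44 and 1.58 FPKM, while COL1A2 and PDGFRA were listed at 0 in both libraries. Of the endothelial markers, CDH5 (VE-cadherin) had 3.64 and 0.33 FPKM, PECAM1 0.30 and 0.32 FPKM, and VWF a listed 0 and 0.05 FPKM. Their part in the chemokine values was not tested. The leukocyte markers CD3E, FCGR3B, CSF3R and MS4A1 were listed at 0 in both libraries and PTPRC (CD45) had 0.08 and 0.09 FPKM. Of the 10 leukocyte markers 4 reached 1 FPKM, and the list summed to 54.4 FPKM in control against 67.6 FPKM in FZR1 ko, most of it CD68 (46.1 and 63.8 FPKM), which many cell types express.

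Chemokines bind G protein-coupled receptors on leukocytes and draw the cells along their gradient. CXCL1, CXCL2, CXCL3, CXCL5, CXCL6 and CXCL8 carry a glutamate-leucine-arginine motif and attract neutrophils through CXCR2, CXCL6 and CXCL8 also through CXCR1. CXCL10 calls activated T cells through CXCR3 and is an interferon-induced gene, CXCL16 is made as a membrane protein that binds CXCR6, CCL2 attracts monocytes through CCR2, and CCL20 attracts CCR6-bearing lymphocytes and dendritic cells. In epithelial and tumour cells many of these genes are switched on by NF-kB, often with AP-1, after inflammatory or stress signals, and several of their mRNAs are short-lived.

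The 6 neutrophil-attracting genes lie in 1 cluster, with the platelet chemokine genes PF4V1, PF4 and PPBP among them, on chromosome 4 of GRCh38.p14 (hg38), in a stretch of 359 kb from CXCL8 (73740569 to 73743716) to CXCL2 (74097040 to 74099195), and CXCL10 lies further along (76021118 to 76023497). CCL2 (34255285 to 34257203) and CXCL16 (4733533 to 4739928) are on chromosome 17, and CCL20 (227813842 to 227817556) is on chromosome 2. RefSeq promoter windows, 250 bases before to 50 after the annotated start, matched 8 of the 10 genes, all but CXCL16 and CCL2. They were searched on both strands for GGNNNTTCC (GGAANNNCC on the other strand), which resembles an NF-kB site, TGANTCA (AP-1), TTGCNNAA (C/EBP like) and GAAANN followed by GAAA (interferon response element like). GGNNNTTCC was in all 8 windows, against 20.1% of 35116 promoter windows. TGANTCA was in 1 of the 8, that of CXCL8, against 7.71%. TTGCNNAA was in the window of CXCL2, against 10.5%, and the interferon element letters in that of CXCL10, against 3.57%. No match overlapped another in these 8 windows, and a match shows only that the letters are there.

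Of these promoters, 5 are shown from base 160 to base 41 before the start, 120 bases each in the direction of the gene. They are the 2 genes with the lowest log2 ratios below (CXCL8 and CCL20) and the 3 closely related genes that differed by unequal amounts (CXCL1, CXCL2 and CXCL3). Capitals mark the motif matches. They are at chr4:73740409-73740528 (plus strand) for CXCL8, chr2:227813682-227813801 (plus) for CCL20, chr4:73869233-73869352 (plus) for CXCL1, chr4:74099236-74099355 (minus) for CXCL2 and chr4:74038730-74038849 (minus) for CXCL3.
CXCL8: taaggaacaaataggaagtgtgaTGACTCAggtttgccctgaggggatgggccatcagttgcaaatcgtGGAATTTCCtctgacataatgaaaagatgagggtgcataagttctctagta
CCL20: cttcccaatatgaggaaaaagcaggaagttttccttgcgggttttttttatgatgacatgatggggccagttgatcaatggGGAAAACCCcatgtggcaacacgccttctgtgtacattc
CXCL1: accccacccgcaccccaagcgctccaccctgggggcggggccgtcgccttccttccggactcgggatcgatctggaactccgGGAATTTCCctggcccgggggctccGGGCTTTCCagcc
CXCL2: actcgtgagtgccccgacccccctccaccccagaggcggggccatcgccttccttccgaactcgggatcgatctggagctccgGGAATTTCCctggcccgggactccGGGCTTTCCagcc
CXCL3: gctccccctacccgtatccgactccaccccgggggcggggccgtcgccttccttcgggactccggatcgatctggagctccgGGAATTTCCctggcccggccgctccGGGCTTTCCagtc
The same run, GGAATTTCC, stands 91 to 83 bases before the start of CXCL8, 78 to 70 bases before that of CXCL1 and CXCL3, and 77 to 69 bases before that of CXCL2. It is also in the windows of CXCL5 and CXCL6. In CXCL8 the AP-1 letters TGACTCA lie 137 to 131 bases before the start. CCL20 has GGAAAACCC, a match on the other strand, 79 to 71 bases before its start. When aligned, the shown stretches of CXCL1 and CXCL2 were identical at 102 of 115 aligned bases, those of CXCL1 and CXCL3 at 104 of 116 and those of CXCL2 and CXCL3 at 99 of 119. CXCL8 and CXCL1 shared 56 of 95.

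CXCL8 mRNA made up most of the chemokine mRNA of control cells and was about 10-fold lower in FZR1 ko cells. CCL20, CCL2 and CXCL3 were also lower, CXCL1 and CXCL2 less so, CXCL16 was nearly equal, and CXCL5, CXCL6 and CXCL10 were close to 0 in both libraries. In bulk RNA, fewer cells making a chemokine and less mRNA in each cell cannot be told apart. Differences are given as log2 ratios, FZR1 ko over control, after adding 1 to every FPKM value. None of the 7 that reached 1 FPKM had a log2 ratio above 0, where 50.3% of all genes kept had one under 0. Among the 7 chemokines that reached 1 FPKM, 4 were at least 2-fold lower and 0 at least 2-fold higher, where 6.72% of the 13554 genes were at least 2-fold lower and 6.79% at least 2-fold higher. CXCL8 and CCL20, 2 of the 7, were at least 4-fold lower, as were 0.657% of the genes. Since the genes were picked with these values known, that count describes them and is no evidence about them. CCL2 and CCL20 passed the filter through control alone. Of the 5 with at least 1 FPKM in both libraries, CXCL8 and CXCL3 were at least 2-fold lower. Over the 7 genes the log2 ratios had a median of -1.08, the value of CCL2, beside -0.0048 for all genes kept. It was -0.72 when 1 FPKM was required of each library, which left 5 genes, and -0.57 over all 10.

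**Figure D1:**
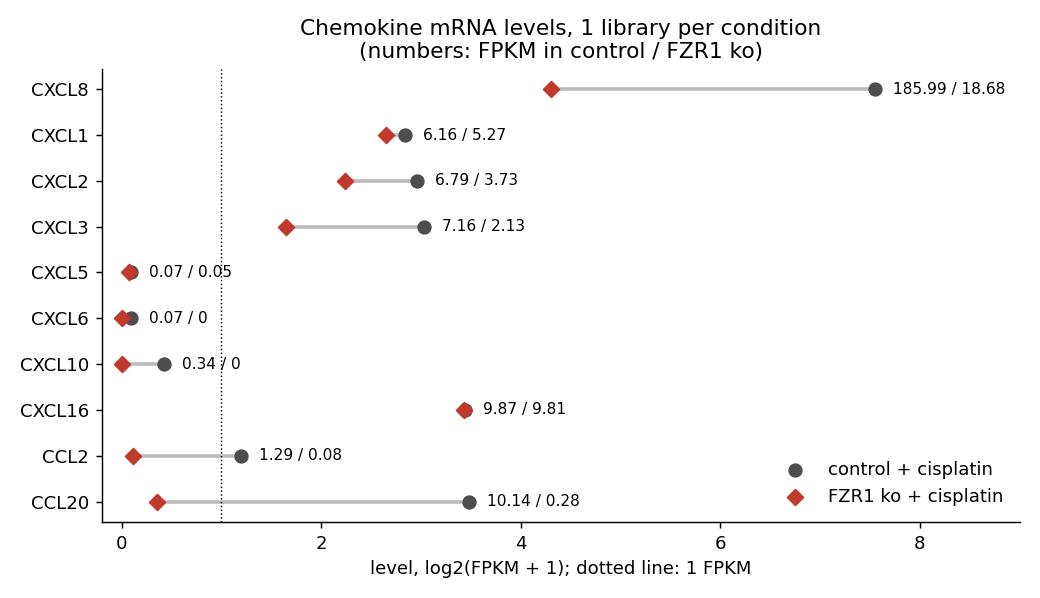
Level of each of the 10 chemokines as log2(FPKM + 1) in control (grey circles) and FZR1 ko cells (red diamonds), both with cisplatin and with 1 library each, with the FPKM printed beside each pair. CXCL8 had 185.99 and 18.68 FPKM, CXCL16 sat at nearly the same place in both, and CXCL5, CXCL6 and CXCL10 were under the dotted line at 1 FPKM.

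CXCL8 (interleukin-8, Entrez gene 3576), the main neutrophil attractant of the group, had 185.99 FPKM in control against 18.68 FPKM in FZR1 ko, a difference of -167.31 FPKM and a log2 ratio of -3.25. Control had 419 genes with a higher FPKM than CXCL8, and FZR1 ko had 4473. It remained the most abundant of the 10 in FZR1 ko. Because both of its values are well above 1 FPKM, its log2 ratio moved little with the pseudocount, from -3.32 with none to -3.01 with 5 FPKM. Of the 13554 genes kept, 5 had a lower log2 ratio. The promoter shown for it is the one with the AP-1 letters.

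CCL20 (Entrez gene 6364), the ligand of CCR6, had 10.14 FPKM in control against 0.28 FPKM in FZR1 ko, with a log2 ratio of -3.12. In FZR1 ko it was left at 2.76% of its control level. Its size depends on the pseudocount, since the lower value is small. The log2 ratio was -5.18 with none and -1.52 with 5 FPKM. To judge such low values, genes with a transcript within 10% of the same length were taken, and the lowest 5% of their values above 0 lay at or below 0.07 FPKM in FZR1 ko. CCL20 there was 4 times that level.

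CCL2 (MCP-1, Entrez gene 6347), which recruits monocytes, had 1.29 FPKM in control against 0.08 FPKM in FZR1 ko, with a log2 ratio of -1.08. Its value in FZR1 ko equals the low-end level of genes of its length, 0.08 FPKM, so it may rest on very few reads. CCL2 is therefore described as low in control and at the limit of the table in FZR1 ko. With a pseudocount of 5 FPKM its log2 ratio was -0.31, and without one it was -4.01. Its neighbours in the CC cluster, CCL7 and CCL11, were listed at 0 in both libraries.

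CXCL3 (Entrez gene 2921) had 7.16 FPKM in control against 2.13 FPKM in FZR1 ko, with a log2 ratio of -1.38. CXCL2 (Entrez gene 2920) had 6.79 and 3.73 FPKM, a log2 ratio of -0.72. CXCL1 (Entrez gene 2919) had 6.16 and 5.27 FPKM, a log2 ratio of -0.19. These 3 genes, the GRO chemokines, started from much the same level in control and stood apart in FZR1 ko, with their order turned round. The level of CXCL1 was 0.86 times that of CXCL3 in control and 2.47 times in FZR1 ko. With a pseudocount of 5 FPKM the log2 ratio of CXCL3 was -0.77, no longer 2-fold.

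The 3 GRO genes are close copies, so reads may be split between them in ways that differ by library. Their main GENCODE 44 transcripts were identical at 90.9% of aligned bases for CXCL1 and CXCL2, 82.2% for CXCL1 and CXCL3 and 83.6% for CXCL2 and CXCL3. CXCL1 and CXCL2 shared 60 runs of 50 bases, of 1125 in CXCL1, CXCL2 and CXCL3 shared 54, and CXCL1 and CXCL3 shared 6. Their separate values are uncertain for this reason, and their sum, which such splitting moves less because the 3 transcripts are of similar length (1075 to 1174 bases), was 20.11 FPKM in control against 11.13 FPKM in FZR1 ko (log2 ratio -0.80). CXCL8 shared no run of 50 bases with any of the other 9.

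CXCL5 (Entrez gene 6374) had 0.07 FPKM in control against 0.05 FPKM in FZR1 ko, near 0.05 FPKM, the low-end level of genes of its length. CXCL6 (Entrez gene 6372) was at 0.07 FPKM in control, and FZR1 ko listed it at 0. These close relatives of CXCL8 carry the same GGAATTTCC run and were hardly detected in either library, so no difference can be read for them. The 6 neutrophil-attracting genes together had 206.24 FPKM in control against 29.86 FPKM in FZR1 ko, 6.91-fold less. CXCL8 gave 90.2% of that sum in control and 62.6% in FZR1 ko. The share of CXCL1 was 2.99% in control and 17.6% in FZR1 ko.

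CXCL10 (IP-10, Entrez gene 3627), the interferon-induced CXCR3 ligand, had 0.34 FPKM in control, 5.81 times the low-end level for its length, and FZR1 ko listed it at 0. It reached 1 FPKM in neither library and was not among the genes compared. The neighbouring CXCR3 ligands were as low, with CXCL9 listed at 0 in both libraries and CXCL11 at 0.07 FPKM in control and 0 in FZR1 ko. CXCL10 lies within ART3 on the opposite strand, which was listed at 0 in both.

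CXCL16 (Entrez gene 58191), the membrane-bound ligand of CXCR6, had 9.87 FPKM in control against 9.81 FPKM in FZR1 ko, with a log2 ratio of -0.0080. It was the chemokine of the 10 whose log2 ratio was smallest in size, sign aside, and 49.8% of the genes kept had a lower log2 ratio. CCL20 and CXCL16 had similar levels in control (a ratio of 1.03), and in FZR1 ko CXCL16 was 35.0 times as high as CCL20. CXCL16 overlaps MED11 by 76 bases and ZMYND15 by 96 bases on the other strand. MED11 had 6.31 and 12.03 FPKM and ZMYND15 0.17 and 0.15 FPKM. The sources used here do not say whether the counting used strand, so reads in the overlaps cannot be told apart.

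In control the order of levels was CXCL8, CCL20, CXCL16, CXCL3, CXCL2, CXCL1, CCL2, CXCL10 and, at the same value, CXCL5 and CXCL6. In FZR1 ko it was CXCL8, CXCL16, CXCL1, CXCL2, CXCL3, CCL20, CCL2 and CXCL5, with CXCL6 and CXCL10 at 0. With 1 library each, neighbours in these orders have no spread to be set against. The 10 genes summed to 227.88 FPKM in control against 40.03 FPKM in FZR1 ko, and without CXCL8 to 41.89 and 21.35 FPKM.

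**Figure D2:**
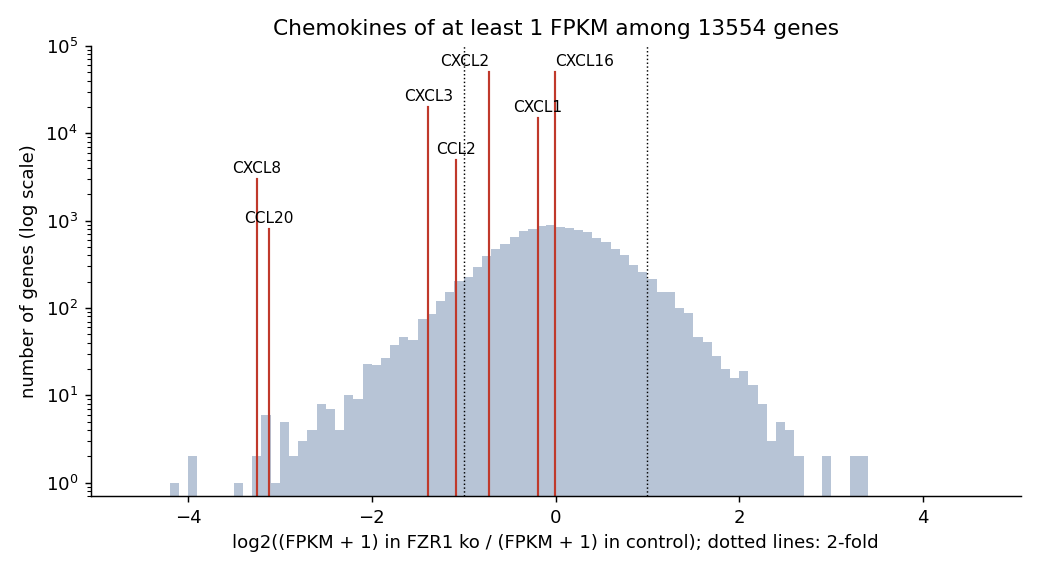
Number of genes (vertical axis, log scale) by log2 ratio of FZR1 ko to control (horizontal axis) for the 13554 genes of at least 1 FPKM in at least 1 library, with red lines at the 7 chemokines. CXCL8 and CCL20 lie in the thin left tail at -3.25 and -3.12, and CXCL1 and CXCL16 near the middle.

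The likeness of other genes to CXCL8 can be measured only by their log2 ratio, as there are 2 libraries. Of the 11550 protein-coding genes kept, 2 came within 0.2 of it, CCL20 and CLTRN (log2 ratio -3.12). The next nearest were the histone genes H3C2 (-3.02), H2AC18 and H2AC19 (-2.91 each, the last 2 with equal values from near-identical copies). Near the middle of all genes, where genes are dense, 2840 protein-coding genes came within 0.2 of CXCL1 and 3026 within 0.2 of CXCL16. CXCL8 and CCL20 were chosen with their large falls known, so these counts only describe where they lie. The closeness of CCL20 to CXCL8 depends on the pseudocount. With 5 FPKM added, CCL20 had a log2 ratio of -1.52 and CXCL8 of -3.01.

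Along chromosome 4 the log2 ratios did not run in order of position. Within the stretch from CXCL8 to CXCL2, the genes at its ends had log2 ratios of -3.25 and -0.72. CXCL1 and CXCL3 lie between them with -0.19 and -1.38. PF4, a platelet chemokine between CXCL1 and CXCL5, was listed at 0 in both libraries, and PF4V1 and PPBP had no value. On the CXCL8 side RASSF6 had 0.23 and 0.70 FPKM. On the CXCL2 side MTHFD2L had 1.14 and 1.16 FPKM, and the EGF-family ligands beyond it, EREG (33.79 and 13.36 FPKM) and AREG (12.84 and 8.58 FPKM), were lower in FZR1 ko. The genes on either side of CCL20 on chromosome 2 were low, SLC19A3 at 0.18 and 0.19 FPKM and DAW1 at 0.44 and 0.54 FPKM.

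**Figure D3:**
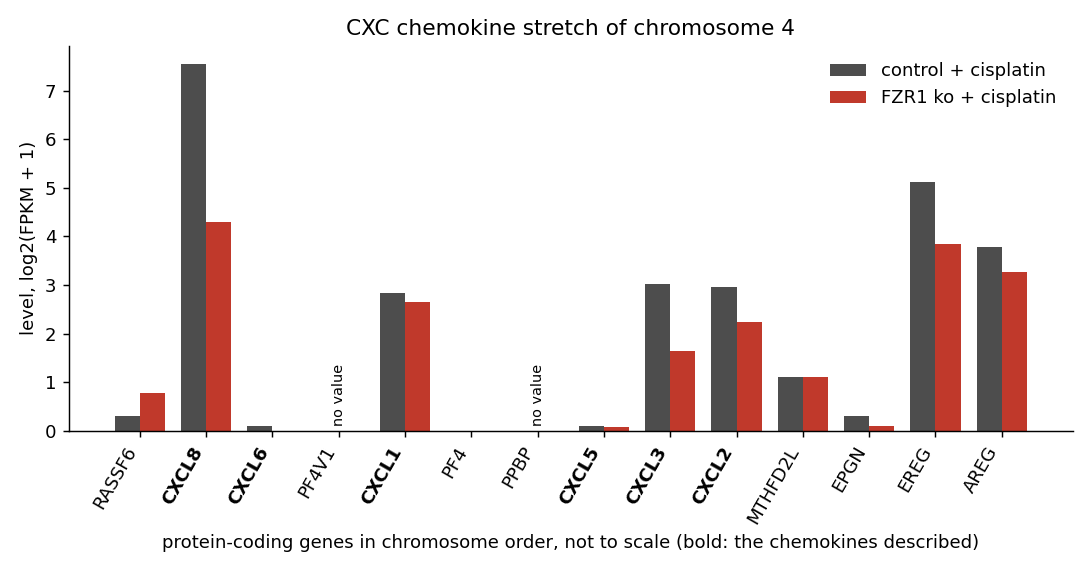
Level, log2(FPKM + 1), in control (grey bars) and FZR1 ko (red bars), 1 library each, of the protein-coding genes from RASSF6 to AREG in chromosome order (horizontal axis, not to scale). CXCL8 is the highest gene of the stretch in both libraries, its neighbour CXCL6 is near 0, and CXCL1 differs less than CXCL2 and CXCL3.

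Most other chemokine ligand genes were under 1 FPKM or had no value, which at unknown depth does not show that they are silent. Of 36 further ligands, 24 had a value and 14 of these were listed at 0 in both libraries. Only 5 reached 1 FPKM, with a median log2 ratio of -0.16. Of the 5, 0 differed 2-fold, which is near the share of all genes that did (13.5%). CCL26 (eotaxin-3) had 13.36 FPKM in control against 16.11 FPKM in FZR1 ko, and CCL5 (RANTES), an NF-kB and interferon target, had 12.56 and 8.56 FPKM. CCL5 was above CCL20 in control and differed by -0.50 on the log2 scale.

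Receptors for these ligands were low. Of 23 chemokine receptors, 12 were listed at 0 in both libraries and 4 reached 1 FPKM, 0 of them 2-fold different, near the 13.5% of all genes for so few. CXCR4, which binds CXCL12, had 11.43 FPKM in control against 8.55 FPKM in FZR1 ko, and CCR6, the receptor of CCL20, had 1.47 and 0.73 FPKM. The receptors that follow were named after their values were seen. CXCR2 had 0.58 and 0.29 FPKM, CXCR6 had 0.39 FPKM in FZR1 ko and a listed 0 in control, and CXCR1, CXCR3 and CCR2 were listed at 0 in both. Among 16 genes that cut chemokines or hold them at the cell surface, 2 of the 12 kept were at least 2-fold lower (6.72% of all genes), the proteoglycan SDC4 (188.44 and 68.34 FPKM) and the protease CTSK (2.36 and 0.48 FPKM). ADAM10 and ADAM17, which release CXCL16 from the membrane and were also named after their values were seen, had 6.75 and 9.16 FPKM and 3.73 and 6.66 FPKM.

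Genes that act upstream of these chemokines were taken from lists that were written with earlier results known. Of 22 transcription factors 9 were at least 2-fold lower and 0 at least 2-fold higher, with a median log2 ratio of -0.60, beside 6.72% and 6.79% of all genes. The zinc finger factor EGR1 had 15.42 and 1.57 FPKM. In AP-1, FOS had 15.97 and 1.86 FPKM, JUN 153.30 and 32.91 FPKM and FOSL1 182.13 and 75.10 FPKM. The AP-1 subunit FOSB had 10.11 FPKM in control against 1.16 FPKM in FZR1 ko, ATF3 123.21 and 29.78 FPKM and JUNB 247.18 and 99.20 FPKM. The other two AP-1 subunits of the list, named after their values were seen, lay within 2-fold: FOSL2 had 31.43 and 48.78 FPKM and JUND 55.03 and 53.10 FPKM. The NF-kB subunits RELA (153.71 and 91.65 FPKM) and NFKB2 (130.54 and 85.78 FPKM) were under 2-fold. Of 20 inducing cytokines and receptors kept, 2 were at least 2-fold lower, TNF (11.10 and 1.01 FPKM) and TLR4 (4.34 and 0.48 FPKM). IL18 was at least 2-fold higher (24.32 and 51.89 FPKM), and these counts were close to those shares of all genes. Their median log2 ratio was -0.50.

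Of 14 genes that act as brakes on chemokine expression 12 had a log2 ratio under 0, beside 50.3% of all genes. Of the 14, 3 were at least 2-fold lower and 1 at least 2-fold higher, beside 6.72% and 6.79% of all genes, with a median log2 ratio of -0.77. ZFP36 (tristetraprolin), whose product binds AU-rich mRNAs such as that of CXCL8 and speeds their decay, had 28.82 FPKM in control against 7.47 FPKM in FZR1 ko, and its relative ZFP36L1 had 65.77 and 24.58 FPKM. The deubiquitinase CYLD had 10.75 and 3.47 FPKM, and NFKBIA, the inhibitor of NF-kB, 113.12 and 63.54 FPKM. HNRNPD (AUF1), another AU-rich binding protein, was higher, at 32.97 and 80.38 FPKM. Of 5 genes that stabilise such mRNAs, among them ELAVL1 (14.11 and 18.93 FPKM), 0 differed 2-fold, again near the 13.5% of all genes. The part of any of these genes in the chemokine levels was not tested.

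**Figure D4:**
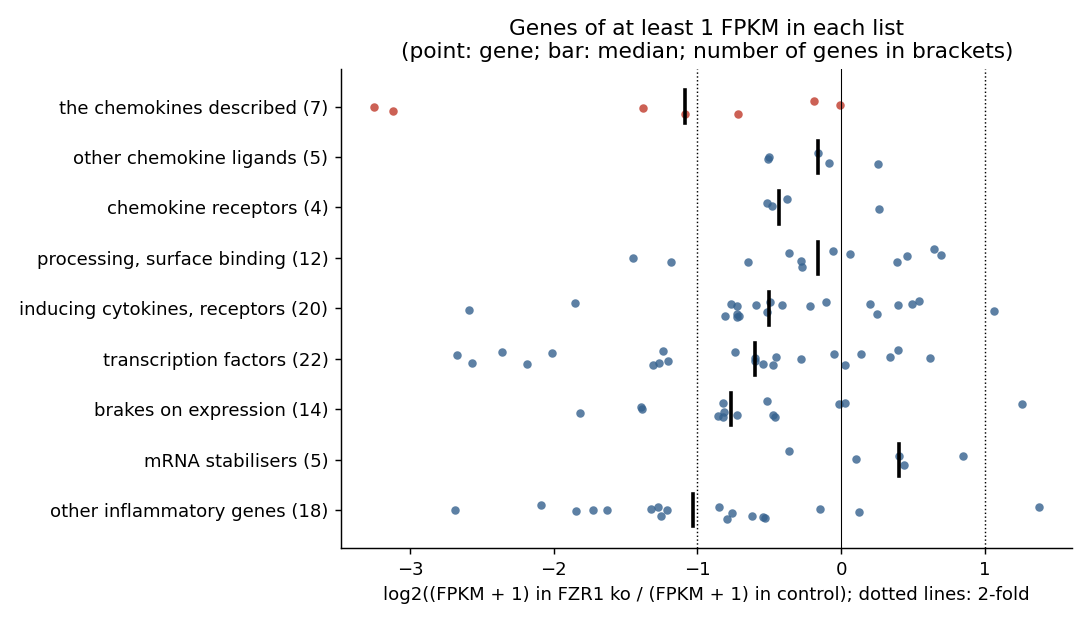
Log2 ratio of FZR1 ko to control (horizontal axis) for each gene of at least 1 FPKM in the chemokines described (red) and in 8 lists of related genes (blue), 1 row per list, with the median as a black bar and 2-fold as dotted lines. The few other ligands (5) and receptors (4) lie within 2-fold, as most genes do, and transcription factors, brakes and other inflammatory genes include genes below -1, the side where CXCL8, CCL20, CXCL3 and CCL2 lie.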

How the data were processed

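Total RNA was sequenced on the BGISEQ-500 platform. Per the study's methods and the submitters' processing notes, reads were mapped to hg38 transcripts by the authors with Bowtie2 (2.2.5 in the notes, another version in the methods) and quantified with RSEM. Trimmomatic 0.36 and HISAT2 2.1.0 are also listed. The annotation and filters are not given in the sources used here. The authors deposited FPKM per Entrez gene ID to 2 decimals, with 0 other columns of values per sample. Of 24663 rows, 1630 had no value and were left out, and 22925 of the 23033 gene IDs (99.5%) matched a RefSeq symbol of GRCh38.p14.

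Log2 ratios of FZR1 ko to control were computed with a pseudocount of 1 FPKM, so that changes of low genes are understated, over genes of at least 1 FPKM in at least 1 library, and counted at 2-fold. The computation was tested on simulated data. No test was made, for want of replicates, and depth is unknown. Alternatives were other pseudocounts, filters, scalings and a 4-fold threshold. The members and lists were chosen with earlier results of these data known. Named genes were the 10 chemokines, FZR1, markers, the 5 genes nearest to CXCL8, and in each list up to 6 of the largest 2-fold differences each way and up to 4 of the highest genes. Chromosome neighbours, CXCL9, CXCL11, ADAM10, ADAM17, FOSL2, JUND and 5 receptors were added after their values were seen. A luminal marker is not reported here. Coordinates and promoters are RefSeq's, transcripts GENCODE 44. Tools were Python 3.11.15 with pandas 2.3.3, numpy 2.4.6, matplotlib 3.10.9 and Biopython 1.88.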

Additional observations from a re-analysis of the deposited data

How the results depend on the processing

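No paired analysis was possible because control and FZR1 ko are single libraries, and none could be left out. The log2 ratios of the 7 chemokines kept were negative under every alternative that kept them. A pseudocount or filter cannot change that sign, and CXCL16, from -0.0088 to -0.0025, was nearly equal throughout. The number at least 2-fold lower, 4 at first, was 2 with a pseudocount of 5 FPKM, 2 at a 4-fold threshold and 2 with at least 1 FPKM in both libraries, which drops CCL2 and CCL20. Their median, -1.08 at first, was -1.70 with a pseudocount of 0.1 FPKM, -0.43 with 5 FPKM and -1.75 with none, the last an alternative chosen after seeing the data. Among all genes kept, the 911 at least 2-fold lower became 89 at 4-fold and 270 when 5 FPKM was added, and the 920 at least 2-fold higher numbered 1463 with 0.1 FPKM, 1422 with none, 183 with 5 FPKM and 61 at 4-fold. By construction, fewer genes pass a higher threshold, or with 5 FPKM added in place of 1 FPKM. The median of the processing and surface binding genes, -0.16, turned to 0.0033 with at least 1 FPKM in both libraries, which drops CTSK and MMP9, both lower in FZR1 ko. The unknown depth limits CCL2, CXCL5, CXCL6 and CXCL10 most.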

Other observations

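A list of 24 further inflammatory genes, written with earlier results known, had 18 genes of at least 1 FPKM. Of these 9 were at least 2-fold lower and 1 at least 2-fold higher in FZR1 ko, beside 6.72% and 6.79% of all genes, with a median log2 ratio of -1.03. HBEGF, a ligand of the EGF receptor, had 57.10 FPKM in control against 8.03 FPKM in FZR1 ko. PTGS2 (cyclooxygenase-2) had 45.57 and 9.96 FPKM, the cytokine IL11 42.90 and 12.29 FPKM, and the urokinase gene PLAU 17.85 and 4.25 FPKM with its receptor PLAUR at 80.99 and 25.54 FPKM. ICAM1, to which neutrophils adhere, had 90.84 and 35.74 FPKM. Complement C3 was higher, at 79.47 and 208.06 FPKM.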
